A study of Mus musculus with 2 samples.

Results

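The genes described here encode the machinery that brings proteins into mitochondria, folds them there and degrades the ones that fail, in muscle of the diaphragm from mouse embryos at embryonic day 18.5. They were the probe sets whose only gene symbol in the platform annotation is that of a translocase subunit of either membrane (Tomm, Timm), of Samm50, or of a named import, processing, chaperone or protease gene of mitochondria. Where a gene had several probe sets, the one with the highest mean of the 2 arrays stands for it. This gave 43 genes with 96 probe sets, among 18193 genes with a symbol of their own on the array. Dnajc19, Phb, Tomm5 and Tomm6 appear only on probe sets that carry several symbols and have no value here.

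The samples carry the genotype labels RP58-/- and RP58+/+. Both are described as skeletal muscle of the C57/BL6 strain, and each was hybridised to 1 Affymetrix array. RP58, now named Zbtb18, is a zinc finger repressor of transcription that is needed for muscle differentiation. The sources used here do not state how the knockout allele was made or how many embryos gave each RNA.

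Most proteins of a mitochondrion are made in the cytosol and carried in unfolded. Receptors and a channel of the outer membrane (the TOM complex) receive them, and the TIM23 complex of the inner membrane, driven by a chaperone motor, takes those with a presequence into the matrix. Carrier proteins go by small chaperones of the intermembrane space to the TIM22 complex instead, and some small intermembrane proteins are held there by a disulfide relay. In the matrix the presequence is cut off, chaperonins fold the protein, and proteases remove damaged copies. Muscle fibres are rich in mitochondria and depend on this supply.

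All values are log2 signals, so a difference of 1 is a doubling, and every difference is the array labelled RP58-/- minus the array labelled RP58+/+. With 1 array per genotype there is no spread between embryos, no test and no p-value. A gene is called lower or higher when it differs by at least 1.5-fold, 0.58 on the log2 scale. The repeat measurement at hand is that of several probe sets for the same gene, which scattered with a pooled SD of 0.28 over all genes and 0.22 over the members. That SD covers probe set error and isoforms, and leaves out the differences between embryos and dissections.

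Facts of both arrays bear on every value. Zbtb18 itself had a signal of 9.21 on the array labelled RP58-/- and 8.91 on the array labelled RP58+/+, and the sources used here do not state whether its probe set falls inside the deletion, so the targeted gene does not check the labels. Xist, transcribed from an inactive X chromosome, was at 6.96 on the array labelled RP58-/- and at 11.47 on the array labelled RP58+/+, so genotype and sex cannot be told apart. The markers of skeletal muscle fibres were present on both arrays, with 8 of 9 lower by 1.5-fold and a mean signal of 11.29 on the array labelled RP58-/- and 12.49 on the array labelled RP58+/+. The median difference over all genes was 0.006 and was not subtracted. RMA makes the distributions of the 2 arrays alike, so every difference is relative to the other genes on them. Scaling to the 24 probe sets of the poly-A control RNAs, whose median difference was -0.75, would raise every difference by that amount, and then only 2 of the 43 members, Tomm40l and Timm17a, would stay below 0.

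Most import genes were below 0 on this measure by small amounts, and few passed the 1.5-fold limit. Of 43 members, 34 were below 0, against 48.75% of all genes, and the median difference was -0.24 (1.18-fold lower), against 0.006 for all genes. By the 1.5-fold rule 4 members were lower, namely Tomm40l, Timm17a, Timm10 and Timm23, which is 9.30% of the members, while 5.38% of all genes were lower. None of the 43 members was higher by that rule, against 3.32% of all genes. The members are bright, and 41 of them lie above the 60th percentile of signal. Among all genes above it, 7.40% were lower and 4.34% higher, against 9.76% and 0 of those 41 members. The differences ran between -1.38 for Tomm40l and 0.35 for Tomm40. Timm23 passed the 1.5-fold limit narrowly at -0.61, and Pmpcb narrowly missed it at -0.57. In all, 25 members differed by less than the pooled probe set SD, 16 were lower by more than it and 2, Tomm40 and Hspd1, were higher by more than it. Over all genes, 16.67% were lower by more than that SD and 15.42% higher.

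**Figure D1:**
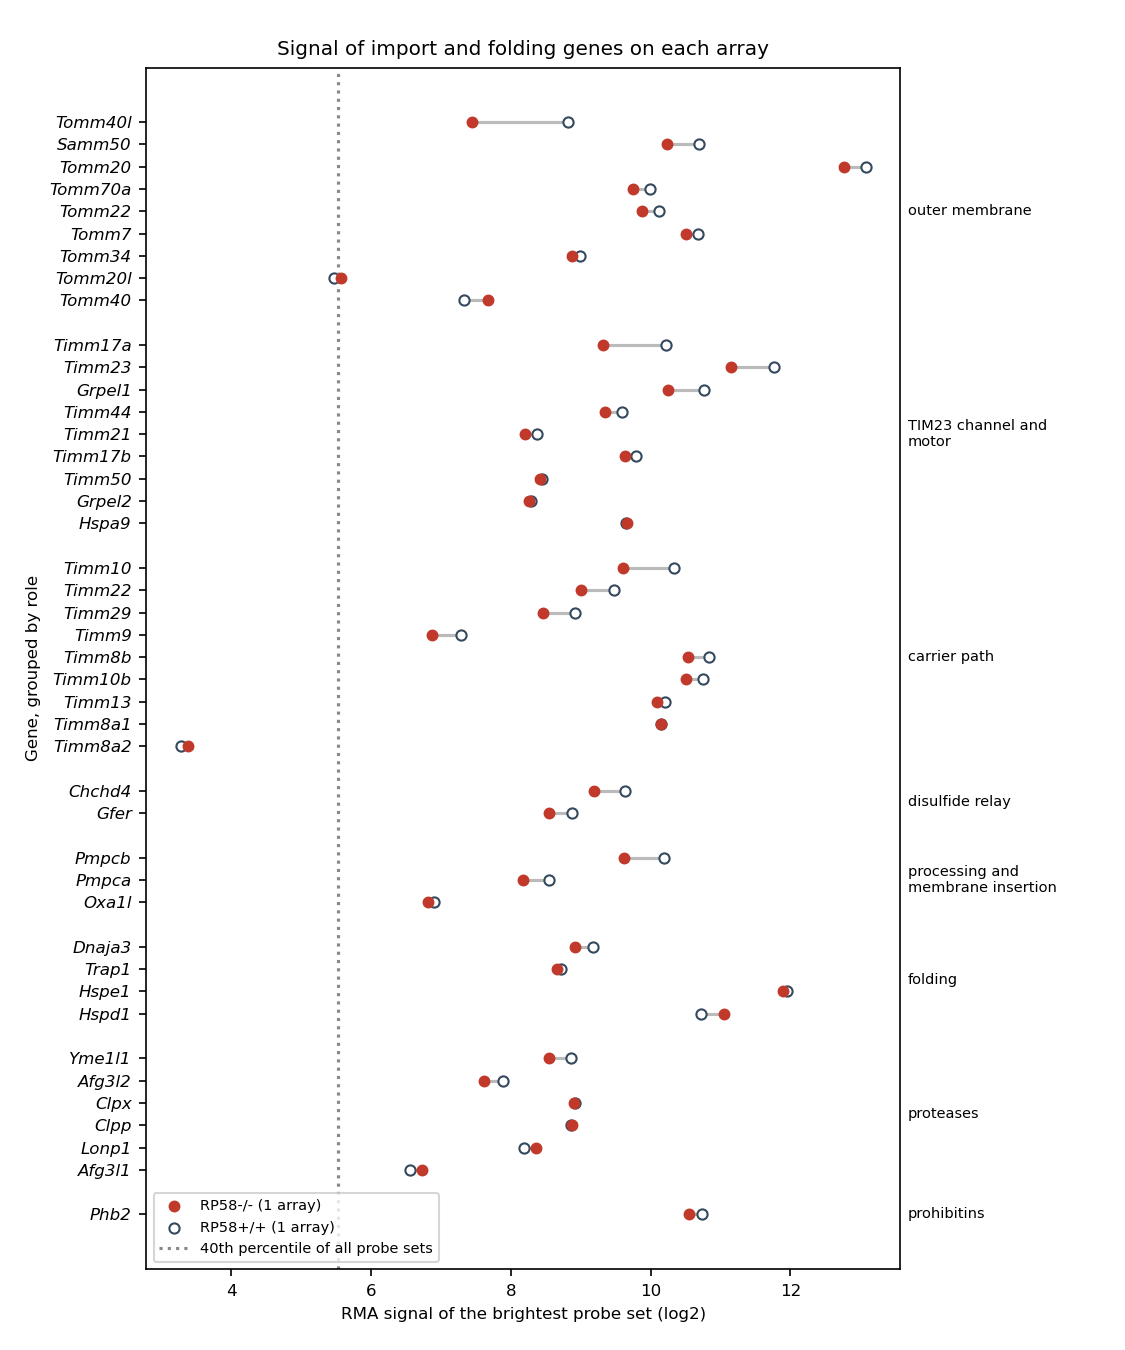
Signal of each member on the 2 arrays. The horizontal axis is the log2 RMA signal of the gene's brightest probe set, filled points are the array labelled RP58-/-, open points the array labelled RP58+/+, and the dotted line marks the 40th percentile of all probe sets. In 34 of 43 genes the filled point lies left of the open point, with the widest gap at Tomm40l, and probe sets of different genes cannot be compared in level.

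At the outer membrane, Tomm40l was lower by the 1.5-fold rule and Tomm40 did not pass it. Tomm40l, a paralog of the channel protein, had a signal of 7.44 on the array labelled RP58-/- and 8.81 on the array labelled RP58+/+, a difference of -1.38 (2.6-fold lower). Only 0.94% of all genes had a lower difference. Its other probe set gave -0.72, so both lay past the 1.5-fold limit. Tomm40, the channel protein of the TOM complex, had a signal of 7.68 on the array labelled RP58-/- and 7.33 on the array labelled RP58+/+, a difference of 0.35 from its single probe set. Tomm40l and Tomm40 have the lowest and the highest difference of the 43 members, and Tomm40l minus Tomm40 was -1.72, a value with no replicate check.

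The receptors of the TOM complex were below 0 on their brightest probe sets, and none passed the 1.5-fold limit. Tomm20, a receptor for presequences, was at 12.77 on the array labelled RP58-/- and 13.08 on the array labelled RP58+/+, and its 6 probe sets ran between -0.55 and 0.15. Tomm70a, a receptor for carrier proteins, was at 9.75 on the array labelled RP58-/- and 10.00 on the array labelled RP58+/+. Its 5 probe sets were all below 0, from -0.73 to -0.09. Tomm22, the central receptor, gave -0.25 and -0.16 on its 2 probe sets. Samm50, which inserts barrel proteins into the outer membrane, gave -0.45, with 10.23 on the array labelled RP58-/- and 10.69 on the array labelled RP58+/+. The probes of that probe set can match other transcripts, and the unique probe sets of Samm50 gave -0.29 and 0.04. Tomm7, a small subunit that modulates the complex, was at -0.17, with probe sets on both sides of 0. Tomm34, a cytosolic co-chaperone, was at -0.11, and Tomm20l, at 0.10, had a mean signal below the dotted line of the signal plot. The 9 outer membrane genes had a median of -0.25, with 1 lower and 0 higher by the 1.5-fold rule.

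On chromosome 1, which also carries Zbtb18, lie 4 members. Their order in the RefSeq table of assembly GRCm38.p6 is Hspd1, Hspe1, Timm17a, Tomm40l and then Zbtb18, with 103 annotated protein-coding genes between Tomm40l and Zbtb18. Of the genes on either side of Tomm40l, the nuclear receptor gene Nr1i3 differed by 0.09 and the apolipoprotein gene Apoa2, a liver marker, by 0.99. Of the neighbours of Timm17a, Rnpep was at -0.25 and Lmod1 at 0.29. At the next place out on either side, Elf3 was at -0.46 and Shisa4 at -1.18, lower than Timm17a itself. At the same place beside Tomm40l, Pcp4l1 was at 0.71 and Fcer1g at 0.26.

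In the TIM23 complex, Timm17a and Timm23 were lower by the 1.5-fold rule and the motor's own chaperone was near 0. Timm17a, which lines the channel together with Timm23, had a signal of 9.32 on the array labelled RP58-/- and 10.22 on the array labelled RP58+/+, a difference of -0.90 (1.87-fold lower). Timm23 had 11.15 on the array labelled RP58-/- and 11.76 on the array labelled RP58+/+, a difference of -0.61 (1.53-fold lower). Each of these was read by 1 probe set, so neither has a repeat on the array. After centring the differences by signal, Timm23 no longer passed the limit, at -0.57. Timm17b, the other isoform of Timm17a, differed by -0.16, with 9.64 on the array labelled RP58-/- and 9.79 on the array labelled RP58+/+, and its second probe set gave 0.12. Timm17a minus Timm17b was -0.75.

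The promoter windows of these 3 subunits are shown because the isoforms Timm17a and Timm17b differed in size of change while Timm17a and Timm23 were both lower. Each is a RefSeq window of 300 bases in GRCm38.p6, 250 before and 50 after the annotated start, read 5′ to 3′ on the gene's strand. Capitals mark each match, on either strand, to the motifs listed further on, other than the short and common E-box, which is left in lower case. Timm17a lies at chr1:135313688-135313987 on the minus strand, Timm17b at chrX:7899086-7899385 on the plus strand and Timm23 at chr14:32201842-32202141 on the minus strand.
Timm17a: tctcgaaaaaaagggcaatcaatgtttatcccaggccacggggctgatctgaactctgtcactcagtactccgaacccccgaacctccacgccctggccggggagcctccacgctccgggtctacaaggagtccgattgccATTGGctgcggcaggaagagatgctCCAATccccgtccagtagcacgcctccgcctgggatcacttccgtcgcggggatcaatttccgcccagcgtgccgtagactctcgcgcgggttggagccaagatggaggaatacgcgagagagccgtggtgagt
Timm17b: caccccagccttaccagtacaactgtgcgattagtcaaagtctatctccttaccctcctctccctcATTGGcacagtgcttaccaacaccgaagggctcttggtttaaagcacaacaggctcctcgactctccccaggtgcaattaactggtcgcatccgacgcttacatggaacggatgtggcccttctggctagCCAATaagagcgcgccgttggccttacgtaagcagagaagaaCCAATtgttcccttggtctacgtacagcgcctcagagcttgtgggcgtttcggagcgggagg
Timm23: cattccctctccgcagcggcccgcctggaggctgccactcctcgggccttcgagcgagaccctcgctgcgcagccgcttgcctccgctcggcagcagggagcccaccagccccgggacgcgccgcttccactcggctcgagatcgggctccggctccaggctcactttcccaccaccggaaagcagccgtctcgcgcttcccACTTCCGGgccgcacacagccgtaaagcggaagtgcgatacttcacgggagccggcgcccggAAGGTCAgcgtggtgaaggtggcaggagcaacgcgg
The capitals in both Timm17 windows are CCAAT boxes. In the Timm23 window they are a site of the ETS type 48 bases before the start and an estrogen-related receptor site 14 bases after it.

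The remaining TIM23 genes did not pass the 1.5-fold limit. Grpel1, the nucleotide exchange factor of the motor, was at 10.24 on the array labelled RP58-/- and 10.76 on the array labelled RP58+/+, a difference of -0.52, whereas its paralog Grpel2 differed by -0.03 on the brightest probe set and -0.02 on the other. Hspa9, the Hsp70 chaperone that pulls the protein in, was at 9.66 on the array labelled RP58-/- and 9.65 on the array labelled RP58+/+. Its 5 probe sets ran between -0.08 and 0.15, so the motor chaperone did not differ beyond probe set error. Timm44, which ties the chaperone to the channel, was at -0.25, Timm21 at -0.18, and the receptor Timm50 at -0.03. The 9 genes had a median of -0.18, with 2 lower and 0 higher. Further motor subunits that the choice of genes did not include were lower. Dnajc15, a J-protein of the motor, was at 9.89 on the array labelled RP58-/- and 10.97 on the array labelled RP58+/+ (-1.09). Pam16, its regulatory partner, was at 10.35 on the array labelled RP58-/- and 11.21 on the array labelled RP58+/+ (-0.86).

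**Figure D2:**
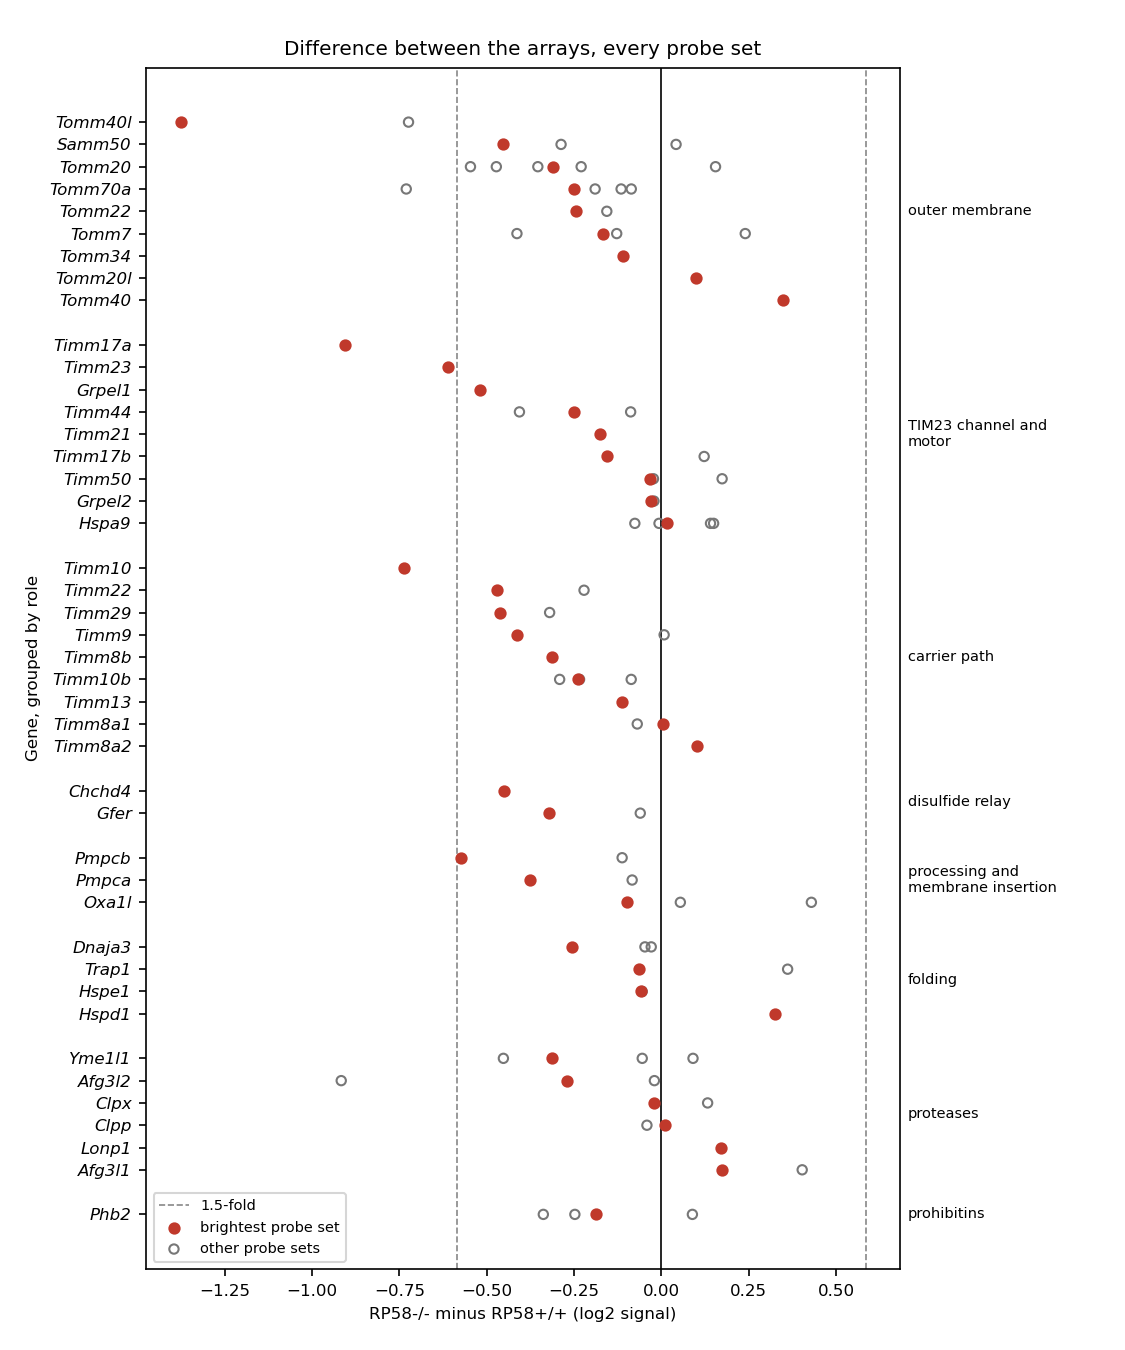
Difference between the arrays for every probe set of the members. The horizontal axis is the log2 signal labelled RP58-/- minus that labelled RP58+/+, filled points are the probe sets that stand for the genes, open points the genes' other probe sets, and dashed lines mark 1.5-fold. The 4 filled points left of the dashed line are Tomm40l, Timm17a, Timm10 and Timm23, and 14 of the 29 genes with several probe sets have points on both sides of 0.

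On the carrier path, Timm10 and the TIM22 subunits were the lowest. Timm10, a small chaperone of the intermembrane space, had a signal of 9.60 on the array labelled RP58-/- and 10.33 on the array labelled RP58+/+, a difference of -0.74 (1.67-fold lower) from its single probe set. Timm9, which forms a hexamer with Timm10, was at 6.87 on the array labelled RP58-/- and 7.28 on the array labelled RP58+/+ (-0.41), and its other, dim probe set gave 0.01. Timm22, the channel of the carrier complex, differed by -0.47 and -0.22 on its 2 probe sets, and Timm29, another subunit of that complex, by -0.46 and -0.32. Timm10b, a small chaperone bound to that complex, had 4 probe sets, all below 0, from -0.29 to -0.09. The small chaperones outside that pair differed less: Timm8a1 by 0.005, Timm8b by -0.31 and Timm13 by -0.11. Timm8a2 had signals of 3.37 on the array labelled RP58-/- and 3.27 on the array labelled RP58+/+, under the 40th percentile, so its difference of 0.10 carries little. The 9 genes had a median of -0.31, with 1 lower and 0 higher.

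The Timm10 window is shown as that of the lowest small chaperone. It lies at chr2:84826771-84827070 on the plus strand of GRCm38.p6, and its capitals are an ETS-type site 16 bases after the start. The window also holds an E-box, which is not in capitals.
Timm10: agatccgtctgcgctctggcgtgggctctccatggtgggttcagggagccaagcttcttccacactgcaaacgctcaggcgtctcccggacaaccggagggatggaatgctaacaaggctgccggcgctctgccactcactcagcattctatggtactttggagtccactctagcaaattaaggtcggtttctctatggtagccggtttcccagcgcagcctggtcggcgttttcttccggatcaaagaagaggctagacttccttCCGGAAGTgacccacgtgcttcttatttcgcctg

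The disulfide relay and the processing enzymes were below 0 in each gene. Chchd4, the oxidoreductase that traps small proteins in the intermembrane space, was at 9.19 on the array labelled RP58-/- and 9.64 on the array labelled RP58+/+ (-0.45). Gfer, the oxidase that recharges it, was at 8.55 on the array labelled RP58-/- and 8.87 on the array labelled RP58+/+ (-0.32), and its second probe set gave -0.06. Pmpcb, the catalytic subunit of the presequence peptidase, gave -0.57 on a probe set of the _x_at kind, whose probes can match other transcripts, and -0.11 on a unique one. Pmpca, its partner, gave -0.38 and -0.08. Oxa1l, which inserts proteins into the inner membrane from the matrix, was at -0.10, with 3 probe sets from -0.10 to 0.43. Neither the relay nor this group had a gene past the 1.5-fold limit.

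No folding or protease gene passed the 1.5-fold limit on its brightest probe set, and their medians were near 0. Hspd1, the chaperonin, had a signal of 11.05 on the array labelled RP58-/- and 10.72 on the array labelled RP58+/+, a difference of 0.33 from its single probe set. Hspe1, the lid of the chaperonin, was at 11.90 on the array labelled RP58-/- and 11.96 on the array labelled RP58+/+, and its 2 probe sets gave -0.06 each. Dnaja3, a J-protein of the matrix, was at -0.25. Trap1, an Hsp90 chaperone of mitochondria, was at -0.06 on an _x_at probe set and at 0.36 on a unique one. The 4 folding genes had a median of -0.06, which became 0.05 with all probe sets averaged and 0.15 without shared probe sets, so the group has no settled direction.

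Hspd1 and Hspe1 are transcribed away from each other from a shared stretch of chromosome 1. The Hspe1 window is shown because the pair shares this stretch. The differences were 0.33 for Hspd1, from 1 probe set, and -0.06 for Hspe1. Their gap is smaller than the SD of 0.40 that the pooled probe set SD gives for a difference between 2 genes. The Hspe1 window lies at chr1:55087898-55088197 on the plus strand of GRCm38.p6 and shares 285 of its bases with a Hspd1 window on the minus strand. Its capitals are a pair of inverted heat shock units 84 bases before the Hspe1 start and an estrogen-related receptor site 48 bases before it.
Hspe1: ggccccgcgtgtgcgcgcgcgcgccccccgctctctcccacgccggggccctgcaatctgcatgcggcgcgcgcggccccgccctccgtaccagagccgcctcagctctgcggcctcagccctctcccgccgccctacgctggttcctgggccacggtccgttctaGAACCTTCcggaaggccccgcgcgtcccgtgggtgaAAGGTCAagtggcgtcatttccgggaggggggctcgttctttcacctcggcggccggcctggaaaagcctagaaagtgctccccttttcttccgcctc

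The proteases of the matrix and inner membrane had a median of -0.005, with 3 of 6 below 0 and none past the 1.5-fold limit. Lonp1, the Lon protease, was at 8.35 on the array labelled RP58-/- and 8.18 on the array labelled RP58+/+ (0.17). Clpp and Clpx, the peptidase and the unfoldase of the Clp protease, differed by 0.01 and -0.02. Yme1l1, an inner membrane protease facing the intermembrane space, was at -0.31, with 4 probe sets from -0.45 to 0.09. Afg3l2, a matrix-facing inner membrane protease, was at 7.62 on the array labelled RP58-/- and 7.89 on the array labelled RP58+/+ (-0.27). Its 3 probe sets disagreed, from -0.92 to -0.02, and the unique one of higher signal is the one at -0.92, so that without shared probe sets Afg3l2 counts as lower. Its paralog Afg3l1 differed by 0.17 and 0.40 on its 2 probe sets. Phb2, a prohibitin that forms rings around such proteases, was at 10.55 on the array labelled RP58-/- and 10.74 on the array labelled RP58+/+ (-0.19), with 4 probe sets from -0.34 to 0.09.

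Repeat probe sets bound what can be said of single genes. Of the 43 members, 14 had 1 probe set and 29 had several. Of these 29, 14 had all probe sets below 0, 1 (Afg3l1) had all above 0 and 14 had probe sets on both sides. In Clpx, Timm9 and Yme1l1 the only probe set above 0 had a mean signal below the 40th percentile. The same split was not counted over all genes, so these counts have no background. The values rested on a unique probe set in 24 genes, on one shared by transcripts of the same gene (_a_at) in 10, and on probe sets that can read other genes in 9 (3 _s_at and 6 _x_at).

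Of the members, 37 matched a RefSeq promoter window by gene identifier, and these windows were searched for 9 motifs. Tomm40l, Tomm7, Grpel2, Afg3l2, Hspa9 and Timm21 had no window, so the medians below leave out the lowest member, Tomm40l. Letters were searched on both strands, and a match is a description of the window, not a bound site. Member windows held a median of 22 CG letter pairs, against 16 in array gene windows. Their median share of G and C was 60.17%, against 58.33%. Shares of motifs were not adjusted for this composition, and its part in them was not tested. The ETS-type motif CCGGAAGT, the site read by GABPA, was in 8 of 37 members (21.62%), against 6.65% of the 14367 array genes with a window and 3.89% of all 32851 windows. The 8 were Phb2, Pmpcb, Timm10, Timm10b, Timm23, Timm29, Timm8a2 and Tomm70a. The members with the ETS-type motif had a median difference of -0.36, against -0.16 for those without it. The split ran the other way for 7 of the 9 motifs. Examples are -0.16 with the estrogen-related receptor motif, against -0.25 without it, and -0.11 with the NRF1 motif, against -0.25 without it. Only the RP58 core, held by 2 members, split as the ETS-type motif did, at -0.39 with it and -0.24 without it. The estrogen-related receptor motif AAGGTCA was in 6 members (16.22%), against 4.61% of array genes and 4.72% of windows. Among these, Hspd1 and Hspe1 hold the same site, in the bases their windows share. The motif of NRF1, GCGCATGC, was in 3 members (8.11%), against 4.70% of array genes and 2.71% of windows. The heat shock pair GAANNTTC was in 3 members (8.11%), against 7.58% of array genes and 7.86% of windows. Here too Hspd1 and Hspe1 hold the same site. The YY1 motif AAGATGGC and the cAMP response element TGACGTCA were in 2 members each (5.41%), against 4.09% and 2.94% of array genes, and 2.75% and 1.79% of windows. CCAAT was in 12 members (32.43%), against 42.03% of array genes and 37.41% of windows. The RP58 core ACATCTG was in 2 members (5.41%), Timm22 and Yme1l1, against 3.77% of array genes and 4.43% of windows. The E-box CANNTG, within which the last 6 letters of the RP58 core fall, was in 19 members (51.35%), against 70.84% of array genes and 72.31% of windows.

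Other mitochondrial gene lists held larger shares of lower genes on these arrays, a difference between lists that was not tested. Of 22 other genes of import, inner membrane architecture and proteolysis, 11 (50%) passed the limit downwards and 0 upwards, and the median was -0.57. They were Apoo (-1.47), Apool (-1.03), Chchd3 (-0.98), Immt (-0.76) and Chchd6 (-0.59), which build the cristae junctions, the motor subunits Dnajc15 and Pam16, the metaxin Mtx3 (-0.82), the pore Vdac2 (-0.71), the inner membrane peptidase Immp1l (-0.68) and the protease Parl (-0.67). Probe sets of Apool, Chchd3, Chchd6 and Mtx3 lay on both sides of 0. Of 94 respiratory chain genes, subunits and assembly factors alike, 31 (32.98%) passed it downwards and 2 upwards, around a median of -0.49. Of 76 genes of the mitochondrial ribosome, 23 (30.26%) passed it downwards and 0 upwards, around a median of -0.38. The share among the import and folding members was 9.30% and their median -0.24. Of all genes, 5.38% passed the limit downwards and 3.32% upwards. All these lists were read on the same pair of arrays.

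**Figure D3:**
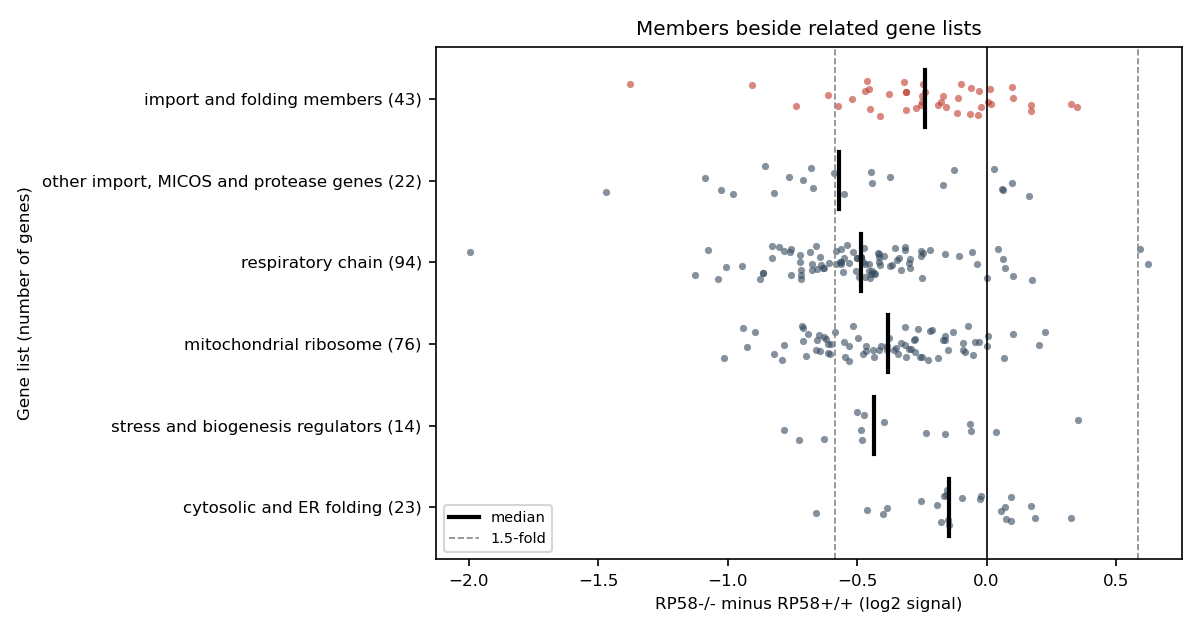
Differences of the members beside related gene lists. Each point is a gene, the horizontal axis is the log2 signal labelled RP58-/- minus that labelled RP58+/+, black bars are list medians, dashed lines mark 1.5-fold and the number of genes stands beside each name. The median of the 43 members, -0.24, lies between those of cytosolic folding genes (-0.14) and of the mitochondrial ribosome (-0.38).

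Markers of liver, lung epithelium, mesothelium and leukocytes were mostly higher on the array labelled RP58-/-, unlike most members. Of 7 liver markers 4 were higher by 1.5-fold, with a mean signal of 13.44 on the array labelled RP58-/- and 12.73 on the array labelled RP58+/+. Of 6 lung epithelium markers 5 were higher, with means of 7.69 on the array labelled RP58-/- and 6.42 on the array labelled RP58+/+. Mesothelium markers were higher in 4 of 5 and leukocyte markers in 3 of 5. The median of muscle fibre markers was -1.40, so they were lower by far more than the import genes. The 2 erythroid markers read had a median of 0.26, the 4 heart markers -0.08 and the 3 brown fat markers -0.05. Among them Hba-a1, Myh6, Nppa, Tnni3 and Adipoq had mean signals below the 40th percentile, so these medians carry little. Of the brown fat markers, Cidea was lower, at 6.18 on the array labelled RP58-/- and 6.85 on the array labelled RP58+/+ (-0.67). Ucp1, which defines brown fat, had a signal of 5.70 on the array labelled RP58-/- and 5.75 on the array labelled RP58+/+, and Adipoq differed by 0.16. In whole tissue, fewer fibres and less RNA per fibre cannot be told apart, and the part of these cell types in the differences of the members was not tested.

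**Figure D4:**
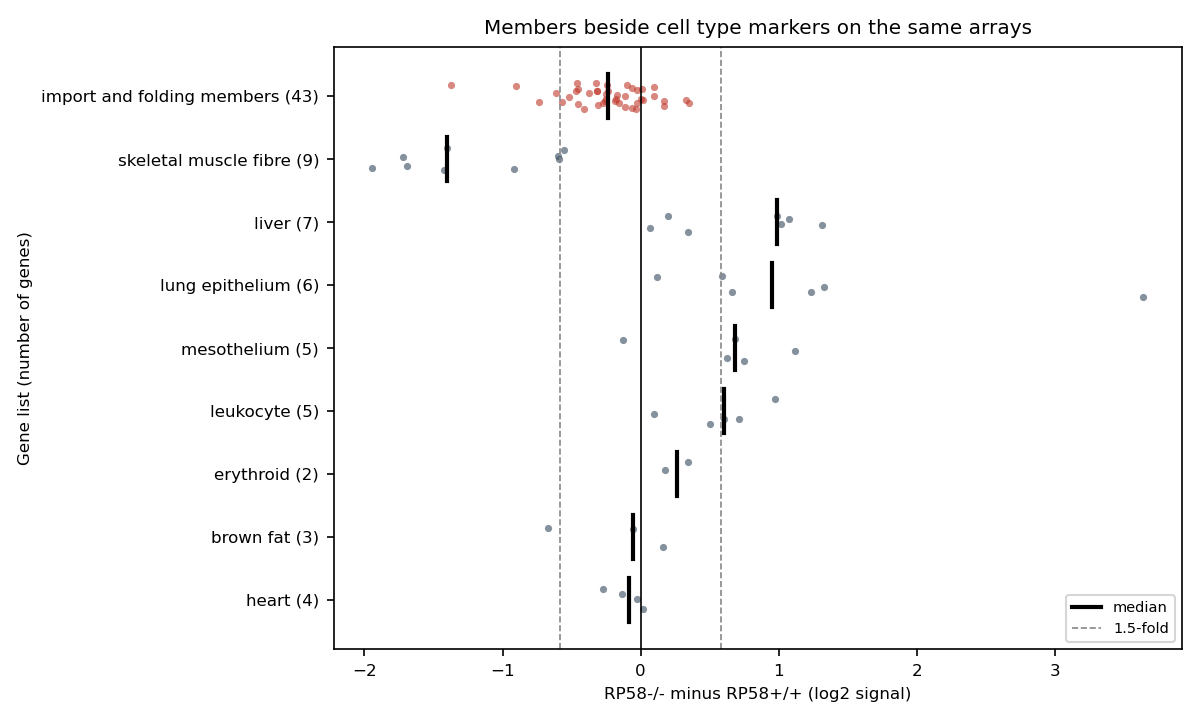
Differences of the members beside cell type markers on the same arrays. Each point is a gene, the horizontal axis is the log2 signal labelled RP58-/- minus that labelled RP58+/+, black bars are list medians and dashed lines mark 1.5-fold. Muscle fibre markers have a median of -1.40, the members -0.24, and liver markers 0.99.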

How the data were processed

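The deposited table holds log2 signals of 45101 probe sets on 2 arrays, which the authors made with the RMA method, per the series' design text. The submitters' processing notes name Affymetrix Expression Console 1.1. RMA corrects background, normalises by quantiles and sums up each probe set, so it makes the arrays' distributions alike and compresses dim and very bright signals. The design text names the 430A 2.0 array, whereas the probe sets match the annotation of a larger design of that family. No genome build is named in those notes.

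Of the probe sets, 34945 carried 1 symbol, 932 several and 9224 none or were controls. Differences, medians and counts were computed in Python 3.11.15 with pandas 2.3.3, after a check on simulated data. The members, gene lists and motifs were chosen with earlier results of these data known. The members may all be named, as may up to 3 genes farthest from 0 and those past 1.5-fold in other lists, the targeted gene, Xist and the markers. Neighbouring genes and motif carriers were named after their values were seen. Alternatives were the mean over probe sets, floors at the 40th and 60th percentiles of signal, no shared probe sets, centring by the median or by lowess (statsmodels 0.14.6, fraction 0.3), a 2-fold rule and spike-in scaling. Protein sequences were not used here.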

Additional observations from a re-analysis of the deposited data

How the results depend on the processing

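With 1 array per genotype, no value has a replicate, and the number of arrays limits every statement. A value was taken as moved when it shifted by more than the pooled probe set SD of 0.28. Apart from spike-in scaling, only the settings that change probe sets could move a member by much. With probe sets averaged 1 of 43 moved, and without shared probe sets 4 of 37. A floor leaves each member's value as it is, and centring moved no member by more than the SD. Without spike-in scaling, none of the members past 1.5-fold changed sign. The 5 were Tomm40l at -1.05 with probe sets averaged, and, without shared probe sets, Afg3l2 at -0.92, Pmpcb at -0.11, Timm9 at 0.01 and Trap1 at 0.36. The median of the members ran between -0.25 and -0.11 over the alternatives other than spike-in scaling. Over the same alternatives, lower members by the 1.5-fold rule numbered 3 to 5, and 0 were higher under each. Timm23 was lost after centring by lowess and Afg3l2 was gained without shared probe sets. By a 2-fold rule, 1 member, Tomm40l, was lower. The medians of the folding and protease genes changed sign between alternatives. Scaling to the poly-A control RNAs moved the median of all genes to 0.75, and the members relative to that median did not change. On that scale only 2 members, Tomm40l and Timm17a, stayed below 0, so Timm10 and Timm23 changed sign. Members past 1.5-fold were not counted on that scale. No paired analysis was possible because each genotype has 1 array.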

Other observations

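Of 14 regulators of mitochondrial biogenesis and stress response, 12 (85.71%) were below 0, against 48.75% of all genes. By the 1.5-fold rule 3 (21.43%) were lower, against 5.38% of all genes, and 0 were higher, against 3.32%. Their median was -0.43. The 3 were the mitochondrial transcription factor Tfb2m (-0.78), the estrogen-related receptor Esrra (-0.72) and the coactivator Ppargc1a (-0.63). The 5 probe sets of Ppargc1a were all below 0, whereas the 2 of Esrra lay at -0.72 and 0.35. The stress response factor Atf5 was at 9.75 on the array labelled RP58-/- and 9.40 on the array labelled RP58+/+ (0.35), and Ddit3 differed by 0.04.

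Of 23 chaperones of the cytosol and endoplasmic reticulum, 15 (65.22%) were below 0, against 48.75% of all genes, with a median of -0.14. By the 1.5-fold rule 1 (4.35%) was lower, the prefoldin subunit Pfdn1 (-0.66), against 5.38% of all genes. None was higher, against 3.32%. The prefoldin subunits Vbp1 and Pfdn4 were at -0.46 and -0.40, and Hspa5, the Hsp70 of the endoplasmic reticulum, at 0.33.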
